A study of Mus musculus with 12 samples.

Results

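The genes described here encode 10 enzymes and carriers that remove superoxide and peroxides: Sod1, Sod2, Sod3, Cat, Gpx1, Gpx3, Gpx4, Prdx1, Prdx6 and Txn1. They were taken by name from the deposited expression table, all 10 were found among its 54532 genes, and all 10 were above the filter on low values used for testing. The study sequenced brain RNA of mice, 3 libraries in each of 4 groups: tissue taken 1.5 h, 12 h or 48 h after photodynamic therapy, and untreated control brain. Treated mice were given 5-aminolevulinic acid (5-ALA) at 20 mg/kg, waited 30 min and were lit with a 635 nm laser at a dose the labels write as 20 J/cm. The controls carry PBS in their titles and are labelled untreated, and whether they had an injection or light is not given in the labels. The labels name C57BL/6 as the strain and BALB/c as the tissue source in all groups, and give no age, no brain region and no animal behind each library. The p-values below therefore measure the spread between libraries, which may be technical.

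In photodynamic therapy cells turn 5-ALA into protoporphyrin IX, a heme precursor that makes reactive oxygen species under light. Superoxide dismutases turn superoxide into hydrogen peroxide, and catalase, the glutathione peroxidases and the peroxiredoxins then reduce hydrogen peroxide or lipid peroxides. Thioredoxin hands electrons to peroxiredoxins and is itself recharged by thioredoxin reductase, while glutathione peroxidases draw on glutathione. In brain, catalase works in peroxisomes, the manganese enzyme Sod2 in mitochondria, and peroxiredoxin 6 is best known from astrocytes.

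Gpx1, Gpx3 and Gpx4 are selenoproteins: a TGA codon, a stop in other genes, is read as selenocysteine in their active site. The 33 bases around that codon are shown because they set these members apart from the other 7, with the selenocysteine TGA in capitals, on the plus strand of GRCm38 from GENCODE transcripts.
Gpx1, codon at chr9:108339451-108339453, exon 1: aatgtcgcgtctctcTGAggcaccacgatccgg
Gpx3, codon at chr11:54907256-54907258, exon 2: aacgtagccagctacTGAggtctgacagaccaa
Gpx4, codon at chr10:80054737-80054739, exon 3: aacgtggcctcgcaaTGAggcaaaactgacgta

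Promoters of 8 members were matched in RefSeq (GRCm38.p6), each covering 250 bases before and 50 bases after a gene start, and those of Sod3 and Prdx6 are named only. Both strands were searched for the core of the antioxidant response element, TGACNNNGC, the motif bound by Nrf2, and for the AP-1 site TGANTCA. The core was found in Prdx1 and Sod1, and the AP-1 site in Prdx1 at 2 positions. Of 32851 promoters, 12.4% held the core and 7.81% held the AP-1 site. The windows are shown because these are the members with the core, and capitals mark the core, read here on the minus strand.
Prdx1 at chr4:116685455-116685485, core 133 bases before the RefSeq start at 116685599: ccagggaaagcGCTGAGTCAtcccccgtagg
Sod1 at chr16:90220695-90220725, core 56 bases before the RefSeq start at 90220762: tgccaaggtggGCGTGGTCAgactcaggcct
These starts differ from those of the deposited table. The core in Prdx1 overlaps 1 of its AP-1 sites, and a match describes letters only, not binding.

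The libraries held 15348579 to 17444654 reads in genes, recovered from the deposited FPKM (fragment counts divided by gene length and a library factor). The 10 members had 85 to 12119 reads in a library. The factor did not follow each library's own total of reads. Cat had 13.3 FPKM from 603 of 16642402 reads in control replicate 1. It had 18.8 FPKM from 598 of 15709617 in 1.5 h replicate 1, and 15.9 FPKM from 580 of 15348579 in replicate 3. Against that control, FPKM in these 2 libraries were thus higher than own-total scaling would give. All FPKM values given per library carry this scaling. Replicates 1 and 3 of the 1.5 h group stood apart from the other 10 libraries. Over genes with a mean of at least 5 FPKM, their difference from the mean library changed with gene length. It changed by -0.37 and -0.23 on the log2 scale per doubling of length, against slopes of -0.07 to 0.12 in the others. Among those, slopes were -0.07 to 0.02 at 48 h, 0.05 to 0.10 at 12 h and 0.09 to 0.12 in controls. Mitochondrially encoded genes took 12.4% and 9.14% of reads in 1.5 h replicates 1 and 3, 4.16% in 1.5 h replicate 2 and 4.16% to 6.02% in controls. Results are therefore given with and without these 2 libraries, and in the fit without them the 1.5 h group is a single library, assumed to vary like the other groups. Markers of neurons, astrocytes, oligodendrocytes, microglia and endothelium were present in every library, as the tissue label says.

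In control brain Gpx4, which reduces lipid peroxides in membranes, had the highest level of the 10 at 143 ± 11.7 FPKM (SD, n = 3). Gpx1 followed at 55.4 ± 2.82 FPKM and Txn1, cytosolic thioredoxin, at 53.3 ± 4.36 FPKM, and the ranges of these neighbours overlapped. Sod1 had 44.9 ± 1.12 FPKM, Prdx1 39.7 ± 3.03 FPKM and Prdx6 34.7 ± 0.602 FPKM. Lower came Sod2 at 17.3 ± 0.936 FPKM, Cat at 13.4 ± 0.643 FPKM, Gpx3 at 6.99 ± 2.96 FPKM and the extracellular Sod3 at 3.16 ± 0.215 FPKM. No other pair of neighbours in this order overlapped in its ranges over the 3 controls. By mean, Gpx4 was highest in every group and Sod3 lowest at 1.5 h, at 48 h and in controls, while at 12 h Gpx3 had the lowest mean, 5.14 ± 2.24 FPKM, with a range overlapping that of Sod3.

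**Figure D1:**
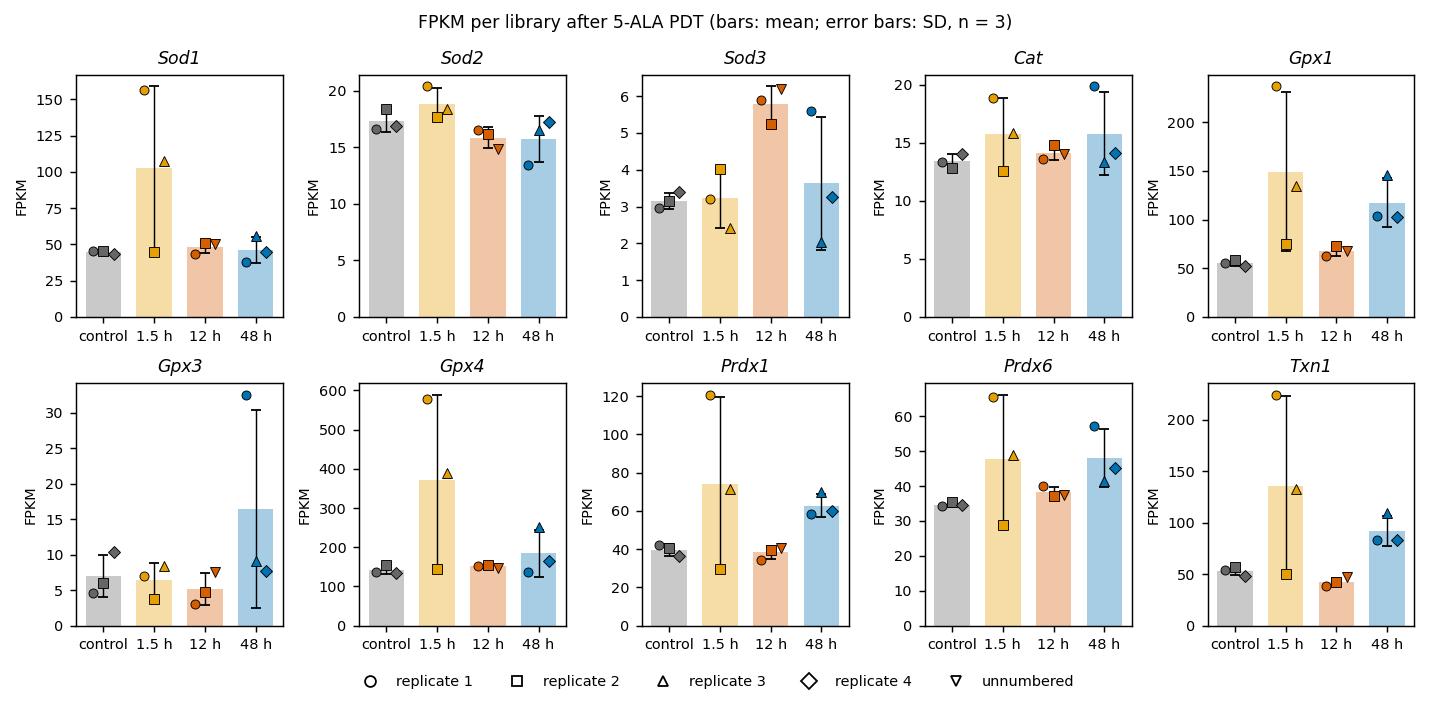
FPKM of each enzyme gene (vertical axis, linear, from 0) in controls and at 1.5 h, 12 h and 48 h after PDT; bars are means, error bars SD over 3 libraries, and points single libraries with the shape giving the replicate. Replicates 1 and 3 at 1.5 h lie above replicate 2 for Sod1, Gpx1, Gpx4, Prdx1, Prdx6 and Txn1, and at 48 h the 3 libraries lie above the controls for Gpx1, Prdx1, Prdx6 and Txn1.

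At 1.5 h none of the 10 enzymes passed the test against control (limma on log2(FPKM + 1), Benjamini-Hochberg adjusted p below 0.05 over 17664 genes), where 0.555% of all genes did. At an unadjusted p below 0.05 there were 4 of 10, Sod1, Gpx1, Gpx4 and Txn1, against 31.6% of all genes. The median log2 change of the members was 0.53, against 0.02 for all genes tested. These values rest on the 2 libraries that stood apart.

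Gpx1, the main cytosolic glutathione peroxidase (ENSMUSG00000063856, chr9:108338903-108340343, plus strand of GRCm38), had 237, 75.3 and 135 FPKM in 1.5 h replicates 1, 2 and 3, against 55.4, 58.2 and 52.6 FPKM in control replicates 1, 2 and 4. The groups did not overlap, with replicate 1 highest and replicate 2 nearest the controls, and Gpx1 was the only member for which this held at 1.5 h, where 14.6% of all genes lay higher without overlap. Its log2 change was 1.26 ± 0.32 (SE), adjusted p = 0.0864, and without replicates 1 and 3 it was 0.44 ± 0.20, adjusted p = 0.554.

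Txn1 (ENSMUSG00000028367, chr4:57943373-57956411, minus strand) had 224, 50.2 and 133 FPKM in 1.5 h replicates 1, 2 and 3, against 53.8, 57.3 and 48.6 FPKM in control replicates 1, 2 and 4. Replicate 2 lay inside the control range and the other 2 far above it. Sod1, the copper and zinc dismutase of the cytosol, had 157, 44.4 and 107 FPKM at 1.5 h in the same order, against 45.4, 45.8 and 43.7 FPKM in controls, and Gpx4 had 579, 145 and 390 FPKM at 1.5 h, against 138, 156 and 134 FPKM in controls. Both show the same split, replicate 2 within the control range and replicates 1 and 3 above it. The log2 changes were 1.10 ± 0.40 for Txn1, 1.0 ± 0.35 for Sod1 and 1.16 ± 0.41 for Gpx4, with adjusted p of 0.111, 0.105 and 0.105. Without the 2 libraries they were -0.08 ± 0.18, -0.02 ± 0.19 and 0.03 ± 0.27.

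Leaving out replicate 2 instead, 6 members passed at 1.5 h, among 45.7% of all genes. Those were Sod1 (log2 change 1.51, adjusted p = 0.000302), Gpx1 (1.67, 0.000391), Gpx4 (1.73, 0.000444), Prdx1 (1.21, 0.000731), Prdx6 (0.69, 0.00422) and Txn1 (1.68, 0.00032). Prdx1 and Prdx6 changed sign between the 2 views: without replicates 1 and 3 the log2 change was -0.40 ± 0.15 for Prdx1 and -0.25 ± 0.16 for Prdx6, and neither passed there, where 0.130% of all genes did. At 1.5 h Sod2 ranged from 17.7 to 20.4 FPKM, Cat from 12.6 to 18.8 FPKM, Sod3 from 2.43 to 4.03 FPKM and Gpx3 from 3.72 to 8.44 FPKM, and each overlapped its controls.

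**Figure D2:**
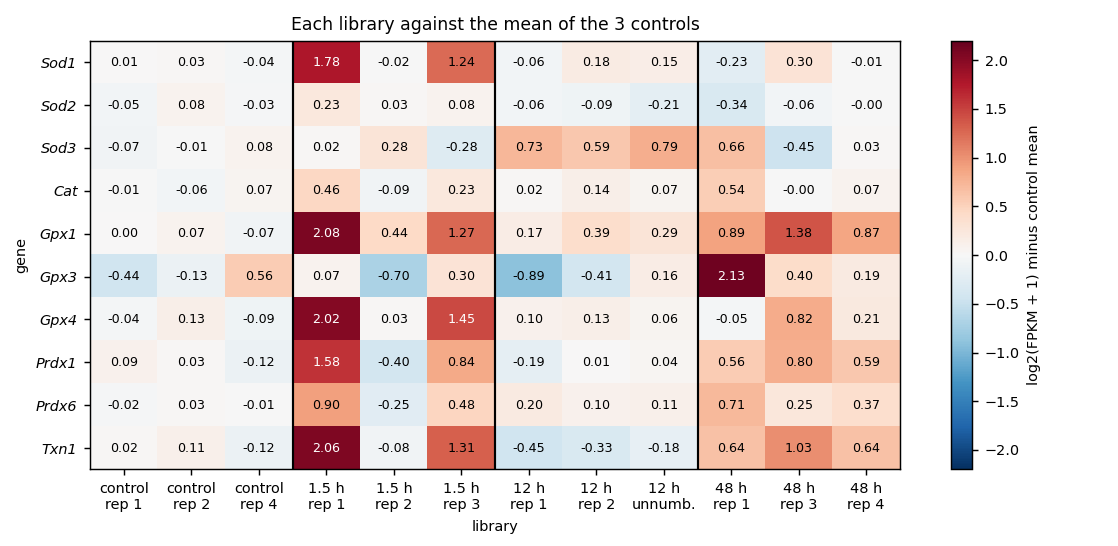
Difference of log2(FPKM + 1) from the mean of the 3 controls (color, log2 scale) for each gene (rows) in each library (columns, controls at left, then 1.5 h, 12 h and 48 h). The 1.5 h replicate 1 reaches 2.08 for Gpx1 and 2.06 for Txn1, where replicate 2 has 0.44 and -0.08, and Sod3 stands at 0.59 to 0.79 in the 12 h libraries.

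At 12 h Sod3, the secreted superoxide dismutase, came closest to the threshold, and none of the 10 passed the test against control, where 21.2% of all genes did. Sod3 (ENSMUSG00000072941, chr5:52363791-52371418, plus strand) had 5.90, 5.24 and 6.20 FPKM in 12 h replicates 1 and 2 and the unnumbered 12 h library, against 2.95, 3.14 and 3.38 FPKM in control replicates 1, 2 and 4. Every 12 h library lay above every control. The log2 change was 0.70 ± 0.24 with a 95% interval of 0.19 to 1.22 and adjusted p = 0.0557, and Sod3 was the only member at an unadjusted p below 0.05, against 33.8% of all genes. Without the 1.5 h replicates 1 and 3, which enter only through the shared spread, Sod3 rose at 12 h (adjusted p = 0.04), 1 of 10 members where 35.2% of all genes passed. The call was also made without 1.5 h replicate 2 (adjusted p = 0.0354), 48 h replicate 1 (0.0133) or 48 h replicate 3 (0.0234), where 32.5%, 22.4% and 19.6% of all genes passed. With any other single library left out, each 12 h and each control library among them, Sod3 did not pass (adjusted p up to 0.147).

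Other members moved less at 12 h. Gpx1 had 62.2, 72.6 and 67.8 FPKM in 12 h replicates 1 and 2 and the unnumbered library, above each of the controls given above, with a log2 change of 0.28 ± 0.32 and adjusted p = 0.6. Txn1 had 38.8, 42.1 and 46.9 FPKM in the same 12 h libraries, all below the lowest control, with a log2 change of -0.32 ± 0.40 and adjusted p = 0.638. In all, 3 members lay higher than controls without overlap (Sod3, Gpx1 and Prdx6), against 28.2% of all genes, and 2 lay lower (Sod2 and Txn1), against 26.2%. The members' median log2 change was 0.08, against 0.00 for all genes. Sod1, Cat, Gpx3, Gpx4 and Prdx1 overlapped their controls, with log2 changes from -0.38 (Gpx3) to 0.09 (Gpx4).

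At 48 h Gpx1 and Txn1 again had the highest levels after Gpx4, and 4 members, Gpx1, Prdx1, Prdx6 and Txn1, lay above every control library, where 21.1% of all genes lay higher without overlap. None of the 10 passed the test with all 12 libraries, where 12.5% of all genes did, and only Gpx1 was at an unadjusted p below 0.05, against 26.5% of all genes. Without the 1.5 h replicates 1 and 3 all 4 of those members rose, where 26.5% of all genes passed. The changes themselves are the same in both fits, and for these 4 genes the standard error is smaller in the second.

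Gpx1 had 103, 146 and 102 FPKM in 48 h replicates 1, 3 and 4, against 55.4, 58.2 and 52.6 FPKM in control replicates 1, 2 and 4. The log2 change was 1.05 ± 0.32 with a 95% interval of 0.34 to 1.76 and adjusted p = 0.058, and ± 0.14 with adjusted p = 0.00096 without the 2 libraries. Txn1 had 83.4, 109 and 83.2 FPKM at 48 h, against 53.8, 57.3 and 48.6 FPKM in controls, with a log2 change of 0.77 ± 0.40 and adjusted p = 0.259, or ± 0.13 and 0.0028 without the 2 libraries. Replicate 3 was the highest of the 48 h libraries for both genes, and its slope against gene length, -0.07, was the lowest of them. Corrected for the gene length trend over all tested genes, the log2 changes were 0.95 ± 0.23 for Gpx1 and 0.68 ± 0.31 for Txn1.

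Prdx1, a thioredoxin-dependent peroxidase of the cytosol whose promoter window is shown above (ENSMUSG00000028691, chr4:116685544-116700822, plus strand), had 58.6, 69.8 and 60.1 FPKM in 48 h replicates 1, 3 and 4, against 42.2, 40.6 and 36.3 FPKM in controls. The log2 change was 0.65 ± 0.37, adjusted p = 0.299, or ± 0.10 and 0.00237 without the 2 libraries. Sod1, with the same motif, had 38.1, 55.7 and 44.6 FPKM at 48 h, a range that spans the controls, and a log2 change of 0.02 ± 0.35 with a 95% interval of -0.75 to 0.79. Prdx6, which reduces phospholipid hydroperoxides (ENSMUSG00000026701, chr1:161240112-161251219, minus strand), had 57.3, 41.4 and 45.1 FPKM at 48 h, against 34.2, 35.3 and 34.5 FPKM in controls, with replicate 1 highest. Its log2 change was 0.44 ± 0.24, adjusted p = 0.274, or ± 0.11 and 0.0196 without the 2 libraries.

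Single 1.5 h libraries changed these 48 h calls through the spread, and the calls also depended on the processing. Without 1.5 h replicate 1 Gpx1 rose at 48 h (adjusted p = 0.00827), where 16.4% of all genes passed. With 1.5 h replicate 2 left out, the adjusted p was 0.00448 for Gpx1, 0.0205 for Prdx1, 0.0388 for Prdx6 and 0.0139 for Txn1, where 23.6% passed. With all 12 libraries kept, Gpx1 rose under own-total scaling (adjusted p = 0.0175), quantile normalization (0.00127) and voom on the recovered reads (0.0386). Of all genes 12.3%, 15.2% and 13.6% passed in those fits, and Prdx1, Prdx6 and Txn1 did not. With the replicate number as a block, on the 11 numbered libraries, none of the 10 passed, where 4.10% of all genes did.

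**Figure D3:**
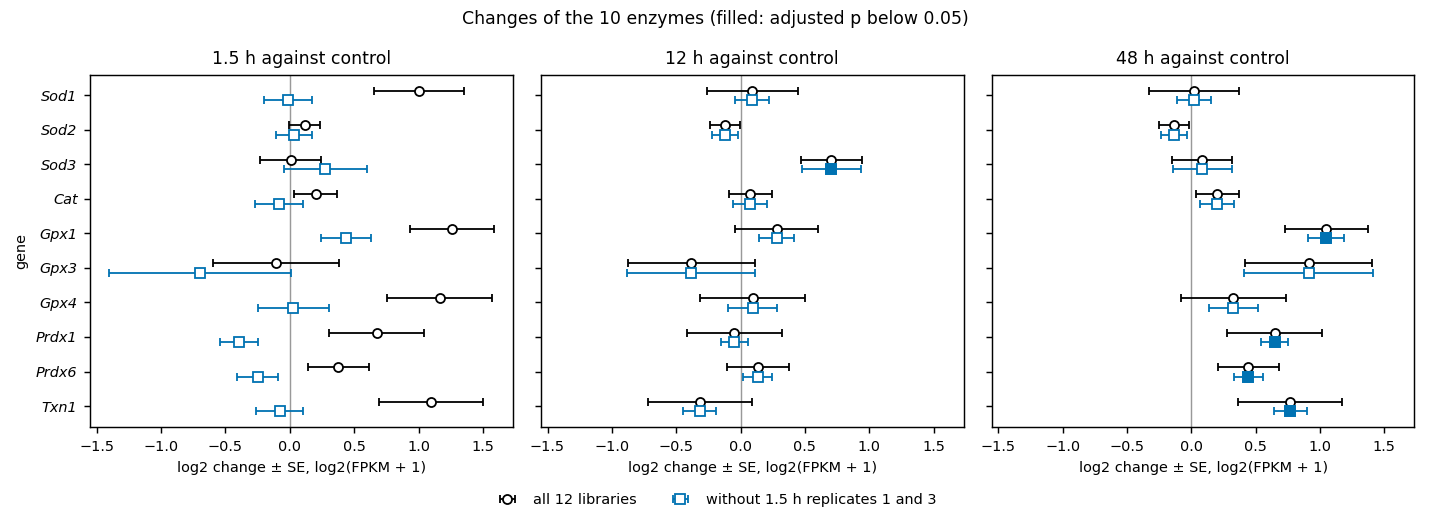
Log2 change against control with its standard error (horizontal axis) for each gene (rows) at 1.5 h, 12 h and 48 h, from all 12 libraries (black circles) and without 1.5 h replicates 1 and 3 (blue squares); filled symbols passed at an adjusted p below 0.05. No circle is filled, while squares are filled for Sod3 at 12 h and for Gpx1, Prdx1, Prdx6 and Txn1 at 48 h.

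Gpx3, the glutathione peroxidase secreted into plasma, had 32.5, 9.13 and 7.75 FPKM in 48 h replicates 1, 3 and 4, against 4.65, 6.00 and 10.3 FPKM in control replicates 1, 2 and 4. Replicate 1 stood alone and the other 2 lay within the control range, with a log2 change of 0.91 ± 0.49 and adjusted p = 0.273. Markers of choroid plexus, 5 of 5 present, summed to 993, 32.6 and 129 FPKM in the same 48 h libraries, against 425 to 670 FPKM in controls. In 12 h replicates 1 and 2 and the unnumbered library the markers summed to 715, 299 and 540 FPKM. Gpx3 had 3.12, 4.75 and 7.55 FPKM there. In 1.5 h replicates 1, 2 and 3 the sums were 6.94, 2.83 and 443 FPKM, with Gpx3 at 7.04, 3.72 and 8.44 FPKM. The part of choroid plexus in the Gpx3 values was not tested.

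Sod2 had 13.4, 16.5 and 17.3 FPKM in 48 h replicates 1, 3 and 4, against 16.6, 18.4 and 16.9 FPKM in controls, a log2 change of -0.13 ± 0.12 with a 95% interval of -0.40 to 0.13. Cat had 19.9, 13.4 and 14.1 FPKM at 48 h, against 13.3, 12.8 and 14.1 FPKM in controls, with a log2 change of 0.20 ± 0.17. Sod3 had 5.58, 2.05 and 3.25 FPKM at 48 h, on both sides of its controls, and Gpx4 had 137, 252 and 165 FPKM, with a log2 change of 0.33 ± 0.41. In these 4 genes the 48 h libraries overlapped the controls, and replicate 1 was the highest for Cat and Sod3 and the lowest for Sod2 and Gpx4. The members' median log2 change at 48 h was 0.39, against -0.00 for all genes.

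Values of Gpx4 are uncertain because the table holds a copy of the gene, Gpx4-ps2, at 44.7 to 207 FPKM at 1.5 h, 44.2 to 52.9 FPKM at 12 h, 46.5 to 89.1 FPKM at 48 h and 43.5 to 47.8 FPKM in controls, and reads could be shared between the 2. The copies Prdx6b, Prdx6-ps2 and Txn-ps1 were at or near 0. Sod1 overlaps Scaf4 on the other strand (mean 7.14 FPKM over all libraries), and whether counting used strand is not given in the sources used here.

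Between times, 3 members differed at 12 h from 1.5 h, where 33.2% of all genes did. Sod3 was higher at 12 h than at 1.5 h by 0.70 ± 0.24 on the log2 scale (adjusted p = 0.0422), Gpx1 was lower by a change of -0.98 ± 0.32 (0.0385) and Txn1 by -1.41 ± 0.40 (0.022). Without 1.5 h replicates 1 and 3 none of the 10 passed, where 13.6% of all genes did, and the changes were 0.43 ± 0.32 for Sod3, -0.16 ± 0.20 for Gpx1 and -0.24 ± 0.18 for Txn1. In that fit the changes were 0.35 ± 0.15 for Prdx1 and 0.39 ± 0.16 for Prdx6. Leaving out any 1.5 h library other than replicate 2, or any 12 h library, ended all 3 calls, and leaving out 48 h replicate 4 or any control ended those of Sod3 and Gpx1. Over all single libraries left out, adjusted p ran from 0.0114 to 0.148 for Sod3, from 0.000516 to 0.108 for Gpx1 and from 6.14e-05 to 0.074 for Txn1. Without 1.5 h replicate 2, Sod1 (-1.42, adjusted p = 0.00015), Gpx4 (-1.64, 0.000308), Prdx1 (-1.26, 0.000357) and Prdx6 (-0.56, 0.0103) were lower at 12 h as well, 7 members in all where 54.7% of all genes passed.

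At 48 h against 12 h none of the 10 passed with all libraries, where 15.6% of all genes did. An unadjusted p below 0.05 was reached by 4 members, Sod3, Gpx1, Gpx3 and Txn1, against 30.0% of all genes, and 5 members, Gpx1, Gpx3, Prdx1, Prdx6 and Txn1, were higher at 48 h without overlap, against 21.4%. Without 1.5 h replicates 1 and 3, Gpx1 (0.77 ± 0.14, adjusted p = 0.00372), Prdx1 (0.70 ± 0.10, 0.00154) and Txn1 (1.09 ± 0.13, 0.00047) rose between these times, where 30.6% of all genes passed. Without 1.5 h replicate 1 alone, Gpx1 (adjusted p = 0.0288) and Txn1 (0.0245) passed, among 20.3% of all genes, and without 1.5 h replicate 2, Gpx1 (0.0173), Prdx1 (0.0128) and Txn1 (0.00213), among 28.0%. With 48 h replicate 1 left out, Sod3 fell by 0.91 on the log2 scale (adjusted p = 0.01).

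In the overall test of the 4 groups, Gpx1 (adjusted p = 0.0258) and Txn1 (0.0447) passed, where 38.4% of all genes did. Without 1.5 h replicate 3, 12 h replicate 1, the unnumbered 12 h library or any control, neither passed, where 25.6% to 27.7% of all genes did. Only 1 passed without 12 h replicate 2 or 48 h replicate 4, where 24.1% and 28.7% of all genes did. Without 1.5 h replicate 2 there were 7 members, where 69.9% of all genes passed, and without 1.5 h replicates 1 and 3 there were 4, where 43.9% did. As a description, the genes with the pattern most like that of Gpx1 over the 12 libraries, by Pearson correlation of log2(FPKM + 1), were Rps12 (0.98), Msrb1 (0.98) and Snx17 (0.98), and those most like Txn1 were Bsg (0.99), Psma1 (0.99) and Ppil1 (0.99). These points share the 2 libraries that stood apart.

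Genes that work with these enzymes were counted from lists chosen with earlier results known. Of 6 tested genes for other peroxide enzymes, of 10 listed, none passed at 1.5 h or 12 h and Gpx8, a peroxidase of the endoplasmic reticulum, rose at 48 h, where 12.5% of all genes passed. Gpx8 had 10.1 ± 2.26 FPKM at 48 h, against 3.38 ± 0.567 FPKM in controls (log2 change 1.32 ± 0.32, adjusted p = 0.0201). With 1.5 h replicates 1 and 3 left out, Gpx8 rose at 12 h too, where 35.2% of all genes passed. At 48 h 3 of 6 rose in that fit, Gpx8, Gpx7 (0.66) and Prdx4 (0.38), where 26.5% of all genes passed.

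Of 18 tested genes listed for thioredoxin, glutaredoxin and repair, 4 rose and 1 fell at 12 h, where 21.2% of all genes passed. Srxn1, the sulfiredoxin that repairs overoxidized peroxiredoxins, had 98.8 ± 11.2 FPKM at 12 h, against 32.6 ± 2.19 FPKM in controls (log2 change 1.57 ± 0.17, adjusted p = 0.00012). Txnip, which binds and inhibits thioredoxin, rose by 1.29 ± 0.38 (adjusted p = 0.0348) and Sesn2, a stress-induced sestrin, by 1.14 ± 0.16 (0.000606). Txnrd1, the reductase that recharges Txn1, had 18.9 ± 1.0 FPKM at 12 h, against 9.86 ± 0.922 FPKM in controls (0.87 ± 0.13, adjusted p = 0.000727). Sesn1 fell at 12 h (-0.76 ± 0.18, adjusted p = 0.0119) and at 48 h (-0.71 ± 0.18, 0.0247).

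At 48 h 3 of these 18 rose and 1 fell, where 12.5% of all genes passed. Srxn1 had 89.0 ± 12.6 FPKM at 48 h, against 32.6 ± 2.19 FPKM in controls (log2 change 1.42 ± 0.17, adjusted p = 0.000372), and Txnrd1 rose by 0.45 ± 0.13 (0.0415). Gsr, glutathione reductase, had 14.9 ± 0.985 FPKM at 48 h, against 10.6 ± 0.438 FPKM in controls (0.46 ± 0.10, adjusted p = 0.0101). None of the 18 passed at 1.5 h, where Srxn1 had a log2 change of 0.48 ± 0.17. In the fit without 1.5 h replicates 1 and 3, 5 rose and 3 fell at 12 h, where 35.2% of all genes passed, and 6 rose and 2 fell at 48 h, where 26.5% did. The list's median log2 change was 0.31, 0.12 and 0.21 at 1.5 h, 12 h and 48 h, against 0.02, 0.00 and -0.00 for all genes, and at 1.5 h it was 0.01 without 1.5 h replicates 1 and 3.

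Among the genes that make superoxide, 5 of 12 described here were high enough to be tested, 4 that encode subunits of the phagocyte NADPH oxidase and its regulator Rac2. None passed at 1.5 h, and Cyba, Rac2, Ncf4 and Ncf1 rose at 48 h, where 12.5% of all genes passed. Cyba, the p22phox subunit, had 17.9 ± 3.96 FPKM at 48 h, against 3.03 ± 0.320 FPKM in controls (log2 change 2.21 ± 0.34, adjusted p = 0.00168). Rac2 rose by 1.64 ± 0.23, Ncf4 by 1.63 ± 0.16 and Ncf1 by 1.37 ± 0.19. Cybb, the catalytic subunit, had 0.536 to 0.706 FPKM at 48 h, 0.195 to 0.357 FPKM at 12 h and 0.0295 to 0.0696 FPKM in controls. Cybb passed the filter on low values only through the 48 h libraries, so its difference from control is given without a test. At 12 h Cyba (1.11 ± 0.34, adjusted p = 0.0388) and Ncf4 (1.07 ± 0.16, 0.00104) rose, where 21.2% of all genes passed, and without 1.5 h replicates 1 and 3 Rac2 did as well (0.53), where 35.2% passed. The genes tested do not stand for the 12.

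**Figure D4:**
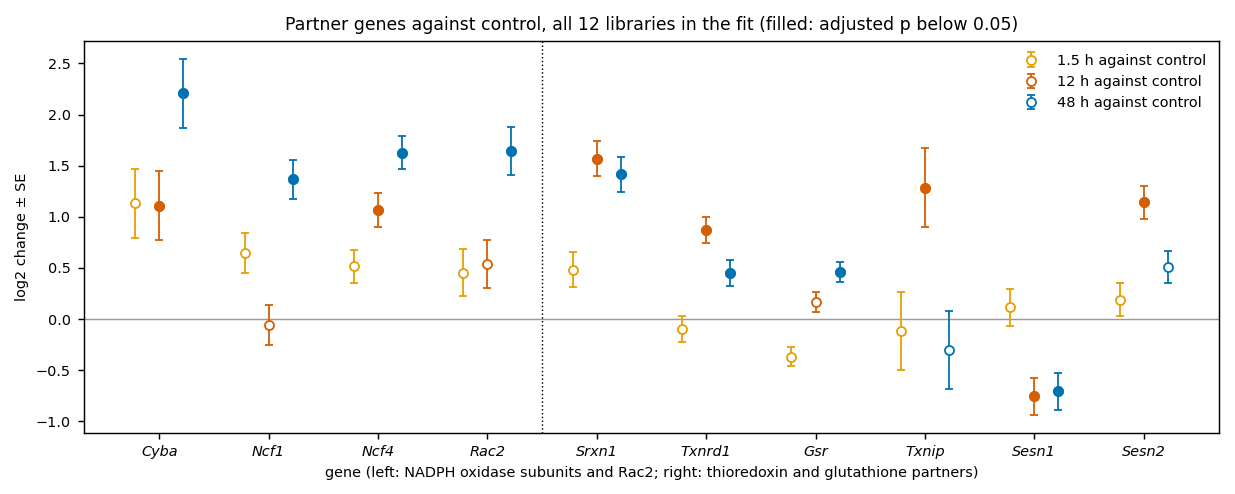
Log2 change of log2(FPKM + 1) against control with its standard error (vertical axis) at 1.5 h, 12 h and 48 h. Shown are genes that make superoxide (left) and genes listed for thioredoxin, glutaredoxin and repair (right). Genes of the right list that passed at no time against control are not drawn. Filled points passed at an adjusted p below 0.05 with all 12 libraries in the fit. Cyba (2.21), Ncf1, Ncf4 and Rac2 are filled at 48 h, Cybb is not drawn, and Srxn1 is filled at 12 h (1.57) and 48 h (1.42).

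The list named for selenoprotein synthesis and selenium supply, 8 of 8 tested, held 1 call against control, Sephs1, which fell at 12 h, where 21.2% of all genes passed (3.16 ± 0.135 FPKM at 12 h, against 4.56 ± 0.319 FPKM in controls, log2 change -0.42 ± 0.09, adjusted p = 0.00836). Sephs2 had a log2 change of -0.33 at 12 h and did not pass (adjusted p = 0.286). The list name does not establish that role for each gene in it. With 1.5 h replicates 1 and 3 left out, 2 fell at 12 h, where 35.2% of all genes passed, and 1 rose and 1 fell at 48 h, where 26.5% did. The selenoproteins Gpx1, Gpx3 and Gpx4, whose codons are shown above, had log2 changes of 1.05, 0.91 and 0.33 at 48 h.

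Marker levels of brain cell types differed between the groups beside these values, and counts of called markers stand against 21.2% of all genes at 12 h and 12.5% at 48 h. The summed level of 6 astrocyte markers was 588 to 816 FPKM at 48 h, against 254 to 266 FPKM in controls, of which Gfap made up 534 ± 97.2 FPKM at 48 h and 20.3 ± 6.97 FPKM in controls. Of the 6, Gfap, Aqp4 and Aldh1l1 rose at 48 h. The other 3 had log2 changes below 0 that did not pass with all 12 libraries: Slc1a2 (-1.03, adjusted p = 0.0769), Slc1a3 (-0.40, 0.0984) and Gja1 (-0.58, 0.06). The sizes of those 3 changes were the same without 1.5 h replicates 1 and 3, which enter the 48 h comparison only through the shared spread. Whether the 3 genes passed as lower depended on that spread. The 5 microglia markers summed to 66.8 to 79.1 FPKM at 48 h, against 46.0 to 54.0 FPKM in controls, and 3 of 5 rose. P2ry12 had a log2 change of -0.64 at 48 h and did not pass with all 12 libraries (adjusted p = 0.0814). Its call too depended on the spread of the 1.5 h libraries. At 12 h the microglia markers summed to 18.6 to 19.7 FPKM and 4 of 5 fell. The 4 oligodendrocyte markers summed to 1082 to 1332 FPKM at 12 h and to 992, 403 and 413 FPKM in 48 h replicates 1, 3 and 4, against 658 to 771 FPKM in controls, and none passed at either time. The 6 neuron markers summed to 512, 761 and 729 FPKM in the same 48 h libraries, against 678 to 822 FPKM in controls. In both sums 48 h replicate 1, which was the highest of the 48 h libraries for Prdx6, Gpx3, Cat and Sod3, stood apart from replicates 3 and 4. The 4 endothelial markers summed to 43.2 to 66.0 FPKM at 48 h and to 46.4 to 59.4 FPKM at 12 h, against 19.7 to 22.9 FPKM in controls. The 5 neutrophil markers summed to 5.27 to 20.2 FPKM at 12 h and to 0.470 to 2.67 FPKM at 48 h, against 0.134 to 0.428 FPKM in controls, where up to 4 of 5 were at 0. In 1.5 h replicates 1, 2 and 3 their sums were 17.5, 3.16 and 0.660 FPKM, and only 2 of the 5 were high enough to be tested. The 3 monocyte markers stayed at or below 1.94 FPKM in every library, and the 5 red cell markers reached 365 FPKM in 1.5 h replicate 1, against 0.781 to 30.1 FPKM in controls. The part of these cell types and of 48 h replicate 1 in the values of the 10 enzymes and their partners was not tested, and in bulk tissue more cells of a type and more RNA per cell cannot be told apart.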

How the data were processed

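RNA of mouse brain was measured in 12 libraries. The authors deposited FPKM values for 54532 genes with gene lengths, per the file headers. The submitters' processing notes name Bowtie 0.12.2 and mm8. Of 54409 identifiers shared with GENCODE M21, 98.3% had the same start and end, all 10 members among them, so positions are given as GRCm38. The counter, annotation and strandedness are not given in the sources used here. Multiplied by gene length, 100% of FPKM values came out as whole reads in units of 1 library-wide step (tolerance 0.05), which gave the reads. Of the columns, 11 matched a title, and the other is used as an unnumbered 12 h library, since its number matches no 12 h title.

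Genes above 0.5 FPKM in at least 3 libraries (17664) were tested as log2(FPKM + 1) with limma 3.58.1 (R 4.3.3, mean-variance trend, 1 fit of 4 groups, 8 residual degrees of freedom), Benjamini-Hochberg adjusted over all genes at 0.05. Fold changes on this scale understate those of low genes. The script was tested on simulated data. All 10 members are named, and from each list up to 4 called genes with the largest changes, with others named where a count is spelled out. A gene of the superoxide list is not reported here. Members and lists were chosen with earlier results of these data known. In all, 23 alternatives were run, among them leaving out each library, 1 of them added after the data were seen.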

Additional observations from a re-analysis of the deposited data

Results flagged for a closer look

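The change against control at 12 h minus that at 1.5 h passed the test of the difference itself for 3 of the 10 enzymes (limma contrast of the 12 h and 1.5 h groups, Benjamini-Hochberg adjusted), where 33.2% of all genes passed. It was 0.70 for Sod3, -0.98 for Gpx1 and -1.41 for Txn1 on the log2 scale. All 3 values include 1.5 h replicates 1 and 3, and without them the differences were 0.43, -0.16 and -0.24 and none passed, where 13.6% of all genes did. The slopes against gene length and mitochondrial shares of these libraries are given in the report, and their part in the differences was not tested.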

How the results depend on the processing

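With all 12 libraries, the numbers of the 10 enzymes called were 0 at 1.5 h, 0 at 12 h and 0 at 48 h against control, 3 at 12 h against 1.5 h, 0 at 48 h against 12 h and 2 in the overall test. Percentages in brackets are the shares of all tested genes called in the same fit. A pseudocount of 0.1 or a filter at 1 FPKM in 6 libraries gave the same counts. No filter gave 1 at 12 h against 1.5 h (16.3%) and 0 overall (18.0%). Own-total scaling gave 1 at 48 h (12.3%) and 2 at 48 h against 12 h (19.0%). Quantile normalization gave 1 at 12 h (26.1%), 1 at 48 h (15.2%), 1 at 12 h against 1.5 h (33.1%) and 3 at 48 h against 12 h (19.3%). Limma's voom on the recovered reads gave 1 at 48 h (13.6%) and 4 at 12 h against 1.5 h (32.5%), and called 49, 3760 and 2397 of all genes at 1.5 h, 12 h and 48 h. With only the 2 groups compared in the fit there were 3 at 12 h (41.2%), 3 at 48 h (21.5%), 1 at 12 h against 1.5 h (13.5%) and 3 at 48 h against 12 h (22.6%). Without 1.5 h replicates 1 and 3 there were 1 at 12 h (35.2%), 4 at 48 h (26.5%), 0 at 12 h against 1.5 h (13.6%), 3 at 48 h against 12 h (30.6%) and 4 overall (43.9%).

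The gene length correction was run in 2 versions. The planned version, with the trend from all tested genes, gave 1 at 48 h (Gpx1, log2 change 0.95 ± 0.23 SE, adjusted p = 0.0177), among 2646 of all genes, 4 at 12 h against 1.5 h (34.5%) and 1 at 48 h against 12 h (18.6%; Txn1, 1.05 ± 0.31, 0.0384). The other, with the trend from genes of at least 5 FPKM, was chosen after seeing the data and the calls of the planned version, and gave 2 at 48 h (13.9%; Gpx1, adjusted p = 0.000855, and Txn1, 0.0259), 3 at 12 h against 1.5 h (34.6%) and 2 at 48 h against 12 h (16.6%).

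Leaving out 1 library at a time gave 0 to 6 at 1.5 h, 0 to 1 at 12 h, 0 to 4 at 48 h, 0 to 7 at 12 h against 1.5 h, 0 to 3 at 48 h against 12 h and 0 to 7 in the overall test. The shares of all genes called ran in the same order from 0.0623% to 45.7%, up to 32.5%, 6.83% to 23.6%, 19.3% to 54.7%, 9.14% to 28.0% and 24.1% to 69.9%. The replicate block, on the 11 numbered libraries, gave 0 members in every comparison, 0 at 12 h against 1.5 h (6.42%) and 0 overall (8.68%) among them, and called 4, 1321 and 724 of all genes at 1.5 h, 12 h and 48 h, against 98, 3737 and 2209 without it. Same-numbered libraries are not paired by the labels, and in 11 pairs their deviations correlated across genes at -0.26 to 0.16, with a median of -0.0035.

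Reversals of sign touched only changes that had not passed in either fit. Scaled to each library's own total, the log2 change was Sod2 -0.12, Sod3 -0.17 and Cat -0.026 at 1.5 h, Sod1 -0.0074, Cat -0.020 and Gpx4 -0.0084 at 12 h, Cat 0.0068 at 12 h against 1.5 h, and Sod1 0.089 and Sod2 0.14 at 48 h against 12 h. After quantile normalization, the log2 change was Sod2 -0.11 and Prdx6 -0.023 at 1.5 h, Sod1 -0.0037 and Gpx4 -0.066 at 12 h, Sod1 -0.029 at 48 h, Prdx6 0.072 at 12 h against 1.5 h, and Sod2 0.043 at 48 h against 12 h. With the gene length trend corrected over all tested genes, the log2 change was Sod3 -0.071 and Cat -0.0077 at 1.5 h, Sod1 -0.0077 and Sod2 0.00053 at 48 h, Cat 0.076 at 12 h against 1.5 h, and Sod2 0.11 at 48 h against 12 h. With the trend taken from genes of at least 5 FPKM, the log2 change was Sod3 -0.18 and Cat -0.20 at 1.5 h, Sod2 0.074 at 48 h, Cat 0.29 and Gpx3 0.35 at 12 h against 1.5 h, and Sod2 0.17 at 48 h against 12 h. Without 1.5 h replicates 1 and 3, the log2 change was Sod1 -0.016, Cat -0.086, Prdx1 -0.40, Prdx6 -0.25 and Txn1 -0.080 at 1.5 h, and Sod1 0.11, Cat 0.16, Gpx3 0.32, Gpx4 0.065, Prdx1 0.35 and Prdx6 0.39 at 12 h against 1.5 h. With the replicate block, the log2 change was Sod1 -0.21 at 48 h, and Gpx4 -0.11 at 48 h against 12 h. With 1 library left out, changes that took both signs were Sod3 from -0.13 to 0.15 and Gpx3 from -0.33 to 0.19 at 1.5 h, Prdx1 from -0.11 to 0.025 at 12 h, Sod3 from -0.21 to 0.35 and Sod1 from -0.12 to 0.15 at 48 h, Cat from -0.27 to 0.0036 and Prdx6 from -0.56 to 0.019 at 12 h against 1.5 h, and Sod2 from -0.080 to 0.089, Sod1 from -0.21 to 0.054, Cat from -0.040 to 0.23 and Gpx4 from -0.014 to 0.42 at 48 h against 12 h. The median of all genes shifted to -0.13 at 1.5 h and 0.12 at 48 h against 12 h under own-total scaling, and to -0.14 at 1.5 h and 0.18 at 12 h against 1.5 h with the trend from genes of at least 5 FPKM. The cause of these differences was not tested. With 3 libraries a group, 95% intervals such as -0.75 to 0.79 for Sod1 at 48 h leave changes of that size undetected.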
